A study of Mus musculus with 27 samples.

Results

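The Kruppel-like factors are a family of transcription factors that end in a run of zinc fingers and bind GC boxes and CACCC boxes, short GC-rich stretches of promoters and enhancers. Members share the DNA-binding end and differ in the rest of the protein, so that some act mainly as activators and others recruit corepressors. In the kidney and in other epithelia they are known for roles in proliferation, differentiation and the response to hormones and stress. The mRNAs of 10 of them, Klf2, Klf3, Klf4, Klf5, Klf6, Klf7, Klf9, Klf10, Klf13 and Klf15, were followed among the 24953 genes of the expression table. They were selected by gene symbol.

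RNA was measured in mK4 cells, a mouse line derived from the metanephric mesenchyme of the embryonic kidney, the tissue that forms nephrons. Parental cells served as control. Runx1KO cells carried a CRISPR/Cas9 deletion of the third exon of Runx1, which holds the start codon used in this line, and grew out of puromycin selection as clones. ZebDKO cells were edited with guides against the second exon of Zeb1 and the first exon of Zeb2. Each group had 3 polyA RNA-seq libraries, from triplicate cultures of a line grown on 12-well plates. How many clones were sequenced is not given in the sources used here, so effects of a clone and of its genotype cannot be told apart, and p-values measure the spread between cultures. ATAC-seq, which marks open chromatin, and ChIP-seq for Runx1 and Runx2 were available for control and Runx1KO cells only.

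Levels are given in TPM, the share of a library's transcripts that a gene holds, a unit scaled for gene length and library, so that genes can be compared within a library. Read depth is not kept in this unit, and the number of reads behind a value is unknown. In the 9 libraries between 12541 and 12697 genes reached 1 TPM, and libraries of a group correlated at 0.994 to 0.996. Changes are log2 fold changes of TPM + 1 from limma. A gene passed at a Benjamini-Hochberg adjusted p under 0.05 and was called when it also changed over 2-fold.

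The level of an edited gene could not check its own edit, because a TPM sums reads over the whole gene, unedited exons included. Runx1 stood at 17.4 ± 1.61 TPM in control (SD, n = 3), 29.6 ± 0.987 in the libraries labelled Runx1KO and 10.1 ± 0.608 in those labelled ZebDKO. Zeb1 stood at 15 ± 0.709, 0.167 ± 0.0577 and 16.1 ± 1.10 TPM, and Zeb2 at 5.2 ± 0.3, 0.2 and 1.7 ± 0.1 TPM in the same order. Thus Zeb1 mRNA was low in the libraries labelled Runx1KO and at the control level in those labelled ZebDKO, and every direction given below rests on these labels. In a second deposited table of the same control and Runx1KO samples, which has no ZebDKO columns, Zeb1 stood at 25.6 to 28.3 TPM in control and 0.22 to 0.52 in Runx1KO, and Zeb2 at 15.1 to 17.4 and 0.55 to 0.77. Low Zeb1 and Zeb2 mRNA therefore went with the Runx1KO label in both tables. The paper likewise reports lower Zeb1 and Zeb2 mRNA in Runx1KO cells, by RNA-seq and RT-qPCR, and no Zeb1 protein there by Western blot. For ZebDKO cells it reports lost Zeb1 protein, which an mRNA level does not measure. Of 8 kidney mesenchyme markers, Vim stood at 2803 and Pax2 at 313 TPM in control, while Six2 and Hoxd11 were at 0 in every control library and Wt1 at 0.3 TPM or less. Of 5 mesenchyme markers tested, 3 were called lower in Runx1KO, beside 5.1% of all genes. These were Osr1 (66.4 to 0.4 TPM), Gdnf (12.7 to 0.1) and Eya1 (16.2 to 5.87). In ZebDKO 1 was called lower and 1 higher, beside 7.28% and 7.49% of all genes. The 8 markers summed to 3153 to 3293 TPM in control, 3220 to 3352 in Runx1KO and 2363 to 2424 in ZebDKO. Most of each sum was Vim (mean 2803, 2806 and 2089 TPM), so the sums do not follow the other markers. The part of these markers in the results was not tested.

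Klf6 was the most abundant member in all 3 groups. In control the order by mean TPM was Klf6, Klf9, Klf5, Klf3, Klf4, Klf2, Klf10, Klf7, Klf13 and Klf15, and the ranges of Klf5 and Klf3, of Klf4 and Klf2, and of Klf7 and Klf13 overlapped. In Runx1KO cells Klf2 moved up to the second place, and in ZebDKO cells Klf10 did. Summed over the 10 members, the level ran from 1065 to 1110 TPM in the control libraries, from 1968 to 2033 in Runx1KO and from 1640 to 1680 in ZebDKO. Klf15, an activator of genes of amino acid breakdown, was listed at 0 in all 9 libraries, so it was in the table but never tested. The other 9 members passed the filter on low values.

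**Figure D1:**
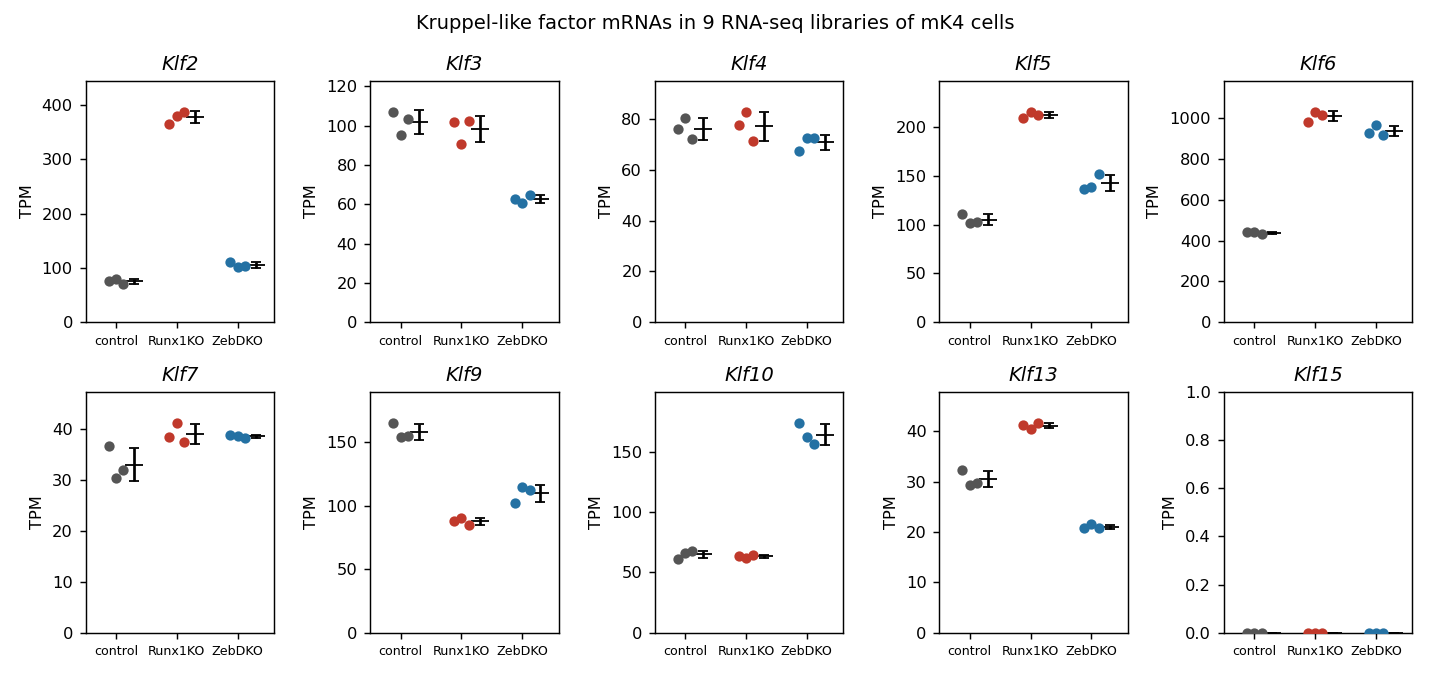
TPM of each of the 10 members (vertical axis from 0) in control, Runx1KO and ZebDKO cells; points are single libraries, and the bar beside them is the mean with its SD (n = 3). Klf2 stands out in Runx1KO, Klf10 in ZebDKO and Klf6 in both, while Klf4 overlaps between control and each knockout.

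In Runx1KO cells 3 of 9 tested members were called higher and 0 lower, beside 7.91% of 13067 genes called higher and 5.1% called lower. At the adjusted p alone 5 members rose and 1 fell, beside 30.4% and 40.1% of all genes. In 6 members the libraries of the 2 groups did not overlap, as in 73.7% of all genes. The median log2 change of the members was 0.24 and that of all tested genes -0.06. In ZebDKO cells 2 of 9 were called higher and 0 lower, beside 7.49% and 7.28% of 12974 genes. Here 5 members rose and 3 fell at the adjusted p, beside 26.9% and 52.5%, and 8 did not overlap, beside 81% of genes. The median change was 0.22 for the members and -0.18 for all genes. Rescaling the libraries by median ratios brought that second median to -0.0014, raised the members' median to 0.41 and moved the share of higher genes among all calls from 50.7% to 64.0%. Both comparisons use the same control libraries. Set directly against ZebDKO, Runx1KO had 1 member called higher and 1 lower, beside 9.2% and 6.59% of 13071 genes; 5 members were higher and 2 lower at the adjusted p, beside 50.2% and 29.8%, and 7 did not overlap, beside 81.7%. The median of all genes in that comparison was 0.15, and median-ratio scaling moved the share of higher calls from 58.3% to 46.6%.

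The chromatin at the members was read from the deposited peak lists, in mm9 coordinates with GENCODE gene models. ATAC-seq peaks had been sorted by the authors into Runx1-independent regions (open in both lines), Runx1-dependent regions (less open in Runx1KO) and Runx1KO-induced regions. The lists hold no value per replicate, so no spread can be given. Within 500 bp of the start site, 8 of 10 members had a Runx1-independent region (all but Klf10 and Klf15), beside 78.7% of 10627 expressed genes. None of the 10 had a dependent or an induced region there (2.03% and 3.69% of genes). A Runx1 peak lay at the start of Klf2, Klf5 and Klf13, 3 of 10 beside 16.8%. A Runx2 peak lay there in 7 members in control (43.0%) and in 5 in Runx1KO (45.9%).

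Klf2, known for its control by blood flow in endothelium and for quiescence of T cells, had the largest change of the members. It stood at 76.1, 79.3 and 70.3 TPM in control, at 365.1, 380.7 and 386.3 in Runx1KO and at 111.2, 101.7 and 103.9 in ZebDKO. The 3 groups did not overlap, and the Runx1KO libraries were far above the rest. Klf2 rose by 2.31 on the log2 scale in Runx1KO (SE 0.0476, limma adjusted p = 3.92e-08) and by 0.48 in ZebDKO (SE 0.0546, adjusted p = 1.11e-04). Compared directly, it was 1.83 higher in Runx1KO than in ZebDKO (SE 0.0404, adjusted p = 5.36e-08). Endothelial cells are a known site of Klf2. The 6 endothelial markers summed to 1.0 to 1.4 TPM in Runx1KO, 2.9 to 4.6 in control and 3.7 to 5.8 in ZebDKO. Nearly all of each sum was Cdh5 (mean 1.13, 3.73 and 4.67 TPM in that order). Kdr and Emcn were at 0 in all control and all Runx1KO libraries. Blood markers summed to 3.3 TPM or less in each library. In bulk RNA fewer cells of a type and less RNA per cell cannot be told apart.

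At Klf2 (chr8:74842932-74845555, plus strand) the Runx1 peak over the start site had a fold enrichment of 4.58 over background, and Runx2 peaks there had 5.09 in control and 4.81 in Runx1KO. The nearest regions that opened in Runx1KO lay 7.83 kb before and 7.59 kb after the start site, between annotated genes, and carried no Runx1 or Runx2 peak. The sequences of these regions are printed from the plus strand of mm9, since they lie beside the member that changed most, with matches to 4 motifs, searched on both strands, in capitals. The GC box was searched as GGGCGGG and the CACCC box as CACACCC. The Runx motif was searched as TGTGGT and the Zeb motif as CAGGTG.
Klf2 start, Runx1 peak before the start site, chr8:74842767-74842931: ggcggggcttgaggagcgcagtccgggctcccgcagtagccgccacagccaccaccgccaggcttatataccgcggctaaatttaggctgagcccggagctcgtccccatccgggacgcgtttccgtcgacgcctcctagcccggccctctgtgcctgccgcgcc
Klf2 induced region upstream, chr8:74834948-74835247: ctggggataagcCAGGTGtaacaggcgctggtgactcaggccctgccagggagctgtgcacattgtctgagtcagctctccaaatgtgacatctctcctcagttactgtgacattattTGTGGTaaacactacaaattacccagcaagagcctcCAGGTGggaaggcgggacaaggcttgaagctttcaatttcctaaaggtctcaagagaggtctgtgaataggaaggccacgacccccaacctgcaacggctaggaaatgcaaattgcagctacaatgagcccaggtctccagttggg
Klf2 induced region downstream, chr8:74850372-74850671: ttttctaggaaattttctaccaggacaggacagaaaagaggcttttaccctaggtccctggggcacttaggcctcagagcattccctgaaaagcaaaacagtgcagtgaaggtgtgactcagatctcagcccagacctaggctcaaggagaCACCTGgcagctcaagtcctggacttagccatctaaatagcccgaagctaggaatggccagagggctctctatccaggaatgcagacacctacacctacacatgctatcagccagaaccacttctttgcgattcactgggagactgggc
The 165 bases at Klf2 held no match to any of the 4 motifs. Of the induced regions, 698 bp wide upstream and 348 bp downstream, only the middle 300 bases are printed and searched. Those of the upstream region held 2 Zeb matches and 1 Runx match, and those of the downstream region 1 Zeb match. Among the middle 300 bases of all 9427 induced regions, 48.4% held a Zeb match and 21.0% a Runx match.

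Klf5, an activator common in dividing epithelial cells, stood at 111.5, 101.4 and 102.4 TPM in control, 209.8, 215.3 and 213.1 in Runx1KO, and 136.4, 139.2 and 152.0 in ZebDKO. The order control, ZebDKO, Runx1KO held with no overlap. It rose by 1.01 in Runx1KO (SE 0.0402, adjusted p = 8.85e-07), just past the 2-fold limit, and by 0.44 in ZebDKO (adjusted p = 1.94e-04). Without control replicate 2 or 3 the first value was 0.99, so the call as over 2-fold rests on single libraries, while the adjusted p stayed under 0.05. Of 8 epithelial markers 5 were tested in each knockout and all 5 were called higher, beside 7.91% of all genes in Runx1KO and 7.49% in ZebDKO. These were 4 (Krt8, Krt18, Krt19 and Cldn4) in both knockouts, Esrp1 in Runx1KO and Epcam in ZebDKO. Most are near 0 in control and passed the filter on low values only through a knockout, so these calls were fixed by the filter and are a description. The 8 summed to 2.7 to 4.9 TPM in control, 2656 to 2738 in Runx1KO and 1149 to 1208 in ZebDKO, most of it Krt8, with Cdh1 at 0.6 TPM or less in all 9 libraries and Epcam at 0 in control and Runx1KO. The part of this shift in the changes of Klf5 and the other members was not tested.

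At Klf5 (chr14:99697910-99712624, plus strand) the Runx1 peak 0.18 kb before the start had a fold of 6.71, and Runx2 had 5.71 in both lines. Klf5 had 1 induced region within 30 kb, 26.1 kb after the start. The window before the start is shown because Runx1 was called there in control and Runx2 in both lines.
Klf5 start, Runx1 peak, chr14:99697581-99697880: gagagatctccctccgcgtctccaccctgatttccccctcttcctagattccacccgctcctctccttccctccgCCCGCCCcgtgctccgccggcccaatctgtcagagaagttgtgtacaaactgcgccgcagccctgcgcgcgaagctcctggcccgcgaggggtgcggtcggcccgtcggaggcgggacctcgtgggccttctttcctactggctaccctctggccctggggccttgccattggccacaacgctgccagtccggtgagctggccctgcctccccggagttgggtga
The printed middle 300 bases of this 335 bp peak held 1 GC box, in capitals. At least 1 was held by 30.01% of 22102 windows of that length before protein-coding genes.

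Klf6, an early response gene with a role in growth control, rose over 2-fold in both knockouts. Control libraries held 443.6, 440.9 and 432.8 TPM, Runx1KO libraries 982.3, 1029.3 and 1018.6, and ZebDKO libraries 928.0, 968.0 and 919.5. Control lay far below either knockout, and Runx1KO lay above ZebDKO by a narrow gap. The rise was 1.20 in Runx1KO (SE 0.0256, adjusted p = 4.65e-08) and 1.09 in ZebDKO (SE 0.0283, adjusted p = 9.57e-08). The direct difference of 0.11 (95% interval 0.04 to 0.17) had an adjusted p of 0.0114, but turned to -0.05 with median-ratio scaling.

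Klf10, first described as a gene induced by TGF-beta, changed in ZebDKO. It stood at 61.5, 66.2 and 67.4 TPM in control, 63.8, 61.8 and 64.2 in Runx1KO, and 173.6, 162.5 and 156.5 in ZebDKO. Control and Runx1KO overlapped, and all ZebDKO libraries were above them. The ZebDKO rise was 1.32 (SE 0.0515, adjusted p = 6.35e-07). The change in Runx1KO was -0.04 (95% interval -0.14 to 0.06, adjusted p = 0.436). Klf10 was 1.36 lower on the log2 scale in Runx1KO than in ZebDKO (log2 change -1.36, SE 0.0424, adjusted p = 2.18e-07).

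Klf9, a gene switched on by glucocorticoid and thyroid hormones, was the member lower in both knockouts. It stood at 165.1, 154.0 and 154.9 TPM in control, 88.0, 90.4 and 85.1 in Runx1KO, and 101.9, 115.0 and 112.4 in ZebDKO. It fell by 0.84 in Runx1KO (SE 0.0381, adjusted p = 1.75e-06) and by 0.52 in ZebDKO (SE 0.0529, adjusted p = 6.14e-05), short of the 2-fold limit in each. No library of one group overlapped another group, with Runx1KO the lowest.

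At Klf9 (chr19:23215716-23241401, plus strand), Runx1 peaks with folds of 4.56 and 3.71 lay 5.71 and 6.08 kb before the start, on a region open in both lines that also carried Runx2 in both. A Runx1KO-induced region lay in an intron 10.5 kb after the start, while the mRNA was lower.

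Klf13, a factor studied in lymphocytes and heart, moved in opposite directions. It stood at 32.4, 29.4 and 29.8 TPM in control, 41.3, 40.5 and 41.6 in Runx1KO, and 20.8, 21.5 and 20.8 in ZebDKO. The groups were fully apart, with control in the middle. It rose by 0.42 in Runx1KO (adjusted p = 1.26e-04) and fell by 0.52 in ZebDKO (adjusted p = 4.40e-05), and the direct difference was 0.94 (SE 0.0343, adjusted p = 4.35e-07). Klf3, a repressor that recruits the corepressor CtBP, stood at 106.7, 95.2 and 103.6 TPM in control, 102.0, 90.8 and 102.6 in Runx1KO, and 62.6, 60.6 and 64.6 in ZebDKO. Only ZebDKO lay apart from control, and there Klf3 fell by 0.69 (SE 0.0499, adjusted p = 1.07e-05). The Runx1KO value was -0.05 (95% interval -0.20 to 0.10).

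Klf4, one of the pluripotency reprogramming factors, stood at 76.0, 80.3 and 72.0 TPM in control, 77.6, 82.6 and 71.3 in Runx1KO, and 67.5, 72.5 and 72.4 in ZebDKO. Both knockouts overlapped control. The log2 changes were 0.02 in Runx1KO (95% interval -0.13 to 0.17, adjusted p = 0.804) and -0.10 in ZebDKO (-0.22 to 0.02, adjusted p = 0.0985). Without control replicate 3 the ZebDKO value was -0.14 with an adjusted p of 0.0411, and with median-ratio scaling it was 0.09 with an adjusted p of 0.142.

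Near Klf4 (chr4:55540013-55545347, minus strand) Runx1-dependent regions were numerous, while its mRNA did not pass the test. It had 18 dependent regions in its regulatory domain, defined as 5 kb before to 1 kb after the start and on to the neighbouring genes, up to 1000 kb, and 2 of them within 20 kb of the start. By the domain rule 8 of 10 members had a dependent region, beside 36.0% of genes, and Klf3 and Klf6 followed with 8 each. Domains differ in width, which was not adjusted for. By the same rule Klf3 had 27, Klf6 17 and Klf4 10 independent regions, beside a median of 3 per gene. The domain shares are therefore no sign of enrichment at the members. With each region given to its nearest start within 100 kb, 3 of 10 members had a dependent region, beside 23.4% of genes. Klf4 was the single member of 10 with one within 20 kb, beside 17.1% of genes. The region 10.5 kb before the start, between genes, carried a Runx2 peak in control (fold 5.13) and in Runx1KO (fold 7.28), and no Runx1 peak. The control Runx2 peak is shown because it lies in a dependent region where Runx2 was called in both lines.
Klf4 Runx2 peak in the dependent region, chr4:55555715-55555977: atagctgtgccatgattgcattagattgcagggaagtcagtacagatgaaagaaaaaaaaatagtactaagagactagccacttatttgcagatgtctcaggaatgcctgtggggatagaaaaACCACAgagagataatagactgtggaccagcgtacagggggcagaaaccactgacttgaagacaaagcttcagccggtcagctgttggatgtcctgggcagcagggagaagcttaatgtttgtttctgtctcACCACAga
It held 2 Runx matches, on the minus strand, and 40.5% of 17360 Runx2 peaks held at least 1 in their middle 263 bases.

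Klf7, known from the developing nervous system, stood at 36.7, 30.5 and 32.0 TPM in control, 38.5, 41.2 and 37.5 in Runx1KO, and 38.9, 38.7 and 38.3 in ZebDKO. It rose by 0.24 in Runx1KO (adjusted p = 0.0218) and by 0.22 in ZebDKO (adjusted p = 0.0166). The adjusted p rose above 0.05 when single libraries were left out. With control replicate 2 left out the adjusted p was 0.0669 and 0.0508, with control replicate 3 left out 0.0677 and 0.0577, without Runx1KO replicate 1 or 2 it was 0.0523 or 0.0755, and without ZebDKO replicate 1 it was 0.0506. In the second table the Runx1KO value was 0.17 with an adjusted p of 0.0656.

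**Figure D2:**
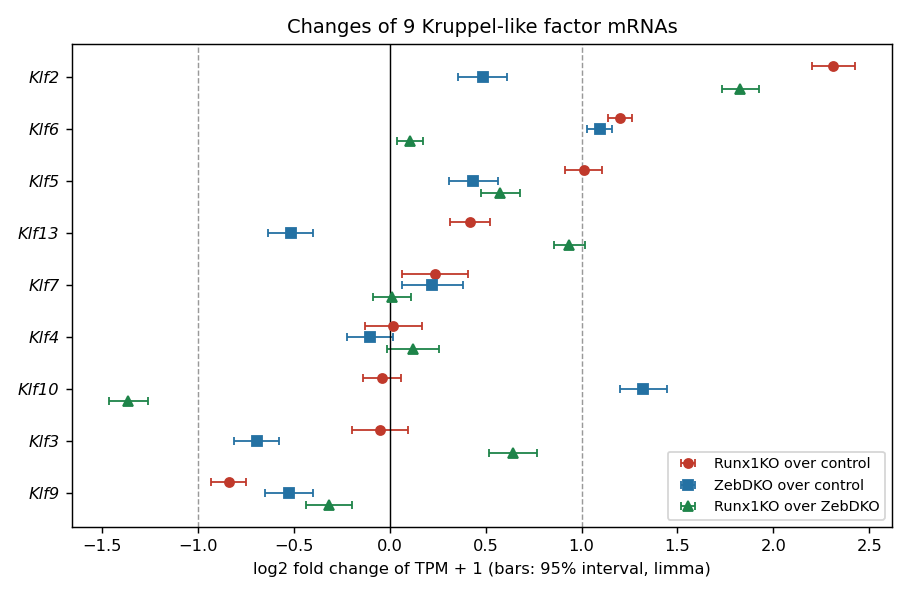
Log2 fold change of TPM + 1 (horizontal axis) of the 9 tested members in 3 comparisons; bars are 95% intervals from limma and dashed lines mark a 2-fold change. Klf2, Klf6 and Klf5 lie at or past the right line for Runx1KO over control, Klf6 and Klf10 for ZebDKO over control, and Klf13 points in opposite directions in the 2 knockouts.

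The second deposited table was quantified apart on the same samples, so it is not an independent measurement. Its control means were 39.0 TPM for Klf2, 53.4 for Klf5 and 273 for Klf6, against 222, 114 and 753 in Runx1KO, so these members were higher in Runx1KO in both tables. Klf10 took second place in its control libraries with 95.9 TPM, so the order of levels between members depends on the table.

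Of the 17 other Kruppel-like and Sp factors listed, 16 were in the table and 9 were tested. In Runx1KO 3 were called higher and 0 lower, beside 7.91% and 5.1% of all genes. At the adjusted p 6 rose and 1 fell, beside 30.4% and 40.1%. The median change was 0.45 beside -0.06 for all genes. The called genes were Sp8 (1.5), Sp6 (1.19) and Klf11 (1.01), the closest relative of Klf10. In ZebDKO Sp6 was called higher (1.14) and Sp8 lower (-1.13), beside 7.49% and 7.28% of all genes. At the adjusted p 2 rose and 4 fell, beside 26.9% and 52.5%, with a median of -0.22 beside -0.18 for all genes. Klf11 stood at 35.2, 38.2 and 35.3 TPM in control, 74.6, 74.7 and 72.4 in Runx1KO, and 24.1, 24.5 and 26.0 in ZebDKO, so that it, like Klf13, lay on either side of control.

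The cofactors and regulators of the family, such as CtBP and Sin3 corepressors, histone deacetylases and the kinase Mapk7, gave 17 tested genes, of which 0 were called in either knockout by limma. At the adjusted p 2 rose and 6 fell in Runx1KO (median change -0.09), and 5 rose and 10 fell in ZebDKO (median -0.16). Of all genes 30.4% rose and 40.1% fell in Runx1KO (median -0.06), and 26.9% and 52.5% in ZebDKO (median -0.18). Called higher and lower were 7.91% and 5.1% of all genes in Runx1KO, and 7.49% and 7.28% in ZebDKO. These shares and medians also stand beside the counts of the targets and early genes below. At an unadjusted p under 0.05, 11 of 17 differed in Runx1KO and 15 in ZebDKO, beside 72.9% and 80.7% of all genes. Genes known as targets of 1 or more members in other tissues gave 9 tested genes. Prodh, which starts the breakdown of proline, was called higher in Runx1KO (2.68, mean 7.47 to 53.3 TPM). So was Nos3, the endothelial nitric oxide synthase (1.11, 1.97 to 5.4 TPM). S1pr1 was called lower there (-1.64, 2.23 to 0.03 TPM), and Nos3 and S1pr1 rest on low values. Klf15 was at 0 in every library, and which member, if any, acts on Prodh or another target was not tested. In ZebDKO Smad7, an inhibitor of TGF-beta signalling, was called higher (1.82) and S1pr1 lower (-1.55). At the adjusted p 5 targets rose and 3 fell in Runx1KO (median 0.38). In ZebDKO 2 rose and 5 fell, and their median of -0.19 lay near the -0.18 of all genes. Several members, Klf2, Klf6 and Klf10 among them, are also early response genes, and cells were lifted with trypsin before RNA was taken. Of the members named, Klf2 and Klf6 rose in both knockouts, while Klf10 changed by -0.04 in Runx1KO and by 1.32 in ZebDKO. Of 18 other immediate early genes tested, 5 were called higher and 1 lower in Runx1KO, with Fos at 1.86, Fosb at 1.81 and Egr3 at -1.66. In ZebDKO 9 were called higher and 0 lower, with Myc at 2.18, Maff at 1.97 and Atf3 at 1.28. At the adjusted p 14 rose and 3 fell in each knockout, with medians of 0.71 and 0.96 beside -0.06 and -0.18 for all genes. Their summed level ran from 9852 to 10534 TPM in control, 15444 to 16348 in Runx1KO and 18912 to 19545 in ZebDKO, and its part in the rise of the members was not tested.

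The genes whose pattern over the 9 libraries lay nearest to a called member, by Euclidean distance on centred log2 values among 13374 genes, were Cbr2 (0.199), Adora1 (0.231) and Asb16 (0.350) for Klf2, and Slc25a1 (0.167), Slc25a10 (0.186) and Tle4 (0.190) for Klf5. For Klf6 Gsn (0.136) and Dusp1 (0.144) were among them, and for Klf10 they were Nefl (0.137), Fscn2 (0.186) and Abtb2 (0.228). Nefl and Fscn2 stayed under 3 TPM in every group mean, so their distances rest on low values. Adora1 (0.5, 6.6 and 1.27 TPM in control, Runx1KO and ZebDKO) and Asb16 (0.133, 4.6 and 0.567) were low as well. For such genes the distance depends on the pseudocount.

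Klf6 and Klf10 were both called higher in ZebDKO, for which no ATAC-seq or ChIP-seq was analysed here. In the lists for control and Runx1KO cells Klf6 had 0 dependent and 0 induced regions within 30 kb, and Klf10 had 1 dependent region and 2 induced regions, all over 20 kb away. By the wider domain rule Klf6 had 8 dependent and 4 induced regions and Klf10 had 2 and 9. Each also had 17 independent regions by that rule, beside a median of 3 per gene. Klf10 had a Runx1 peak in an intron 1.59 kb after its start (fold 4.81). Klf6 had Runx1 peaks 23.85 kb before its start (fold 4.96) and 23.64 kb after it (fold 4.38). By the domain rule Klf6 had 10 Runx1 peaks and Klf10 had 4, and 48.0% of genes had at least 1. Over the 10 members, 35 independent, 3 dependent and 8 induced regions lay within 30 kb. Of the 35 independent regions 6 carried Runx1, 9 Runx2 in control and 12 Runx2 in Runx1KO, and none of the 8 induced regions carried any of these peaks. The shares of all regions with such peaks were not counted here, so these counts are a description. The paper reports little Runx binding at induced regions in general.

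**Figure D3:**
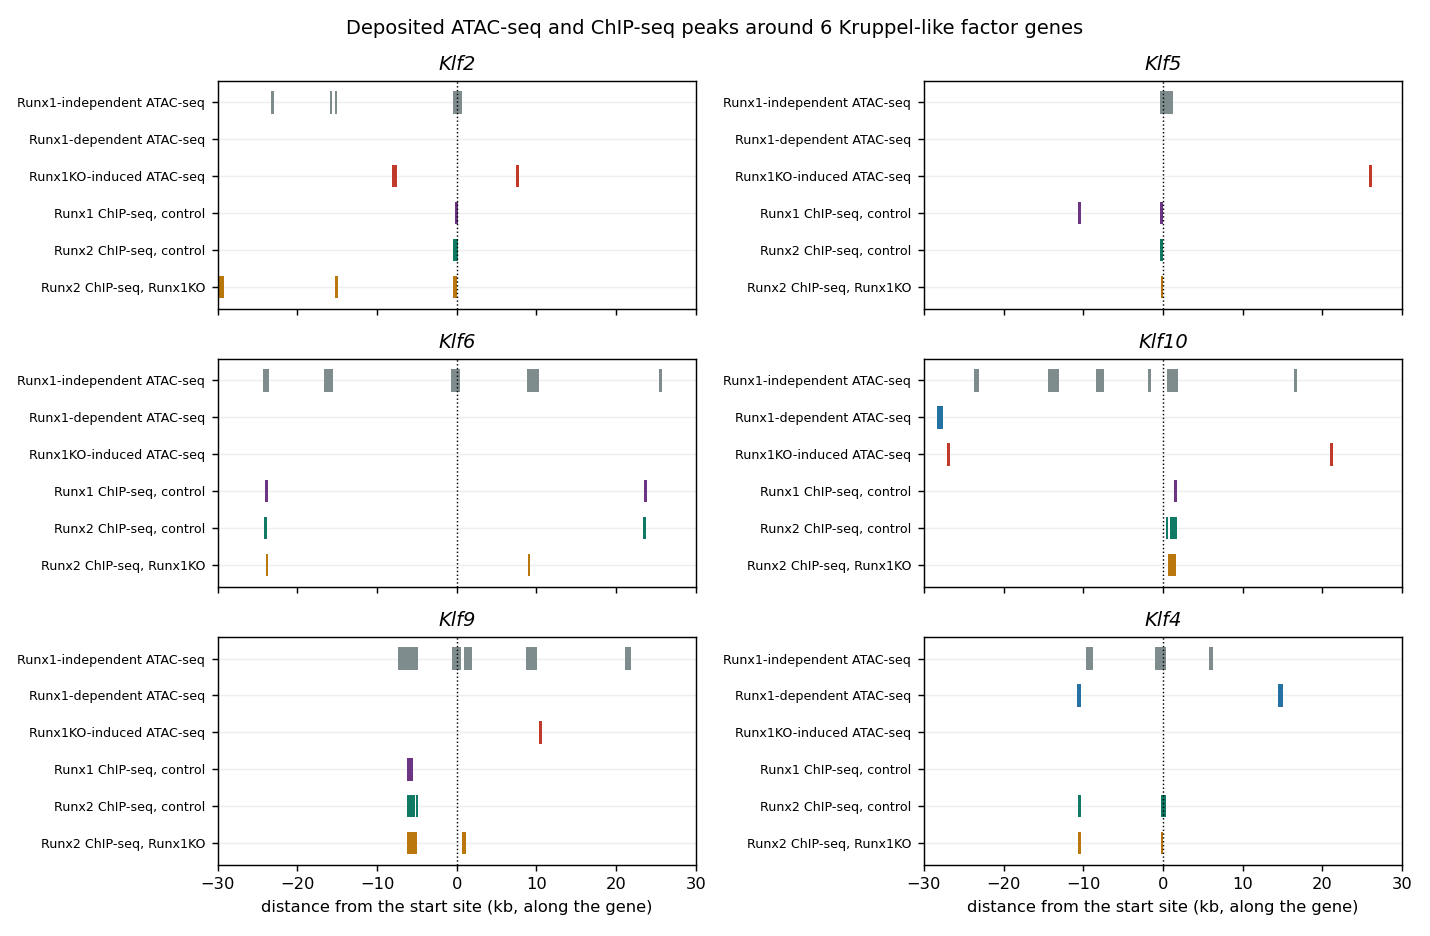
Deposited peaks within 30 kb of the start sites of 6 members (horizontal axis: distance from the start site in kb, positive along the gene); each row is 1 peak list and each box 1 peak, drawn at least 0.35 kb wide. Klf2 has induced regions on both sides of its start, Klf4 has 2 dependent regions, and Klf6 has neither kind in this window.

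The binding sites of the family were looked for in the open regions themselves. A CACCC box was found in 20.2% of independent, 17.5% of dependent and 21.3% of induced regions, and a GC box in 27.4%, 9.87% and 14.3%. The letters of the CACCC box in another order (CCACCAC) were found in 17.0%, 14.8% and 13.6%. In the middle 200 bp, where widths are equal, the CACCC box was found in 6.42%, 5.50% and 8.67% and the reordered letters in 4.81%, 4.54% and 4.74%. The median GC content of whole regions was 52.3%, 49.0% and 51.3%. These shares describe letters in the regions and do not identify the factor bound.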

How the data were processed

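Deposited TPM values of 9 RNA-seq libraries were used, made by the authors from paired reads that were trimmed, aligned to mm9 with STAR, stripped of duplicates and counted per RefSeq gene with featureCounts. The authors called peaks with MACS2, for ChIP-seq on combined replicates less the peaks of the Runx1 antibody in Runx1KO cells, and for ATAC-seq per replicate, keeping peaks of at least 2 of 3 replicates. The deposited ChIP-seq lists give each peak's fold enrichment (a ratio) over background and its q-value as −log10. The deposited ATAC-seq lists hold positions beside the authors' own fold changes and p-values, which were not used. Removing duplicate reads can lower the values of abundant mRNAs. TPM keeps no depth.

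A gene was tested where 3 or more of the 6 libraries compared reached 1 TPM, on log2(TPM + 1) using limma 3.58.1 in R 4.3.3 (trend, Benjamini-Hochberg adjustment, 2 groups per fit). A pseudocount of 1 understates changes of low genes. Simulated data with known changes were used to test the code. Other pseudocounts, filters, fold limits, scaling, a joint fit, a replicate block and leaving out libraries were tried. Peaks were assigned with pysam 0.24.0 on NCBIM37. The reordered CACCC letters were added after seeing the data. All members were named, with at most 3 called genes of each list and the 3 nearest genes of each called member, of which 1 is not reported here. Members and lists were chosen with earlier results of these data known.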

Additional observations from a re-analysis of the deposited data

Results flagged for a closer look

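In 3 members the knockouts differed from each other in the direct limma test, either by over 2-fold or with opposite changes from control. Klf2 differed by 1.83 on the log2 scale, with 3 of 3 Runx1KO libraries above every ZebDKO library. Klf10 differed by -1.36, with 3 of 3 Runx1KO libraries below. Klf13 differed by 0.94, with 3 of 3 Runx1KO libraries above control and 3 of 3 ZebDKO libraries below it.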

How the results depend on the processing

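Of 387 values of single members under the alternatives, 375 kept their direction and their side of the call (over 2-fold and adjusted p under 0.05 together), 10 turned direction and 2 (Klf5, above) dropped under the 2-fold limit. With median-ratio scaling Klf3 (0.011) and Klf10 (0.021) turned in Runx1KO over control, Klf4 (0.092) in ZebDKO over control, and Klf4 (-0.036), Klf6 (-0.052) and Klf7 (-0.14) in Runx1KO over ZebDKO. The scaling removes the shift of the median gene, which moves all values of a comparison the same way. Leaving out 1 library gave -0.096 to 0.0082 for Klf3 and -0.031 to 0.074 for Klf4 in Runx1KO over control, with the sign of Klf3 turned without Runx1KO replicate 2 and that of Klf4 without Runx1KO replicate 2 or control replicate 3. It gave -0.023 to 0.043 for Klf7 in Runx1KO over ZebDKO, turned without Runx1KO replicate 2. Leaving out a library left 2 to 3 members called higher in Runx1KO over control.

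The counts depend on the fold limit. At 1.3-fold, Runx1KO over control had 2413 genes higher and 2444 lower, with 4 members higher and 1 lower. ZebDKO over control had 2244 and 4502 genes, with 4 members higher and 3 lower. Runx1KO over ZebDKO had 4376 and 2404 genes, with 4 members higher and 1 lower. With no fold limit the genes were 3972 and 5244, 3496 and 6809, and 6562 and 3897, and the members 5 and 1, 5 and 3, and 5 and 2. A filter of 5 TPM, which tests fewer genes, left 442 genes lower in Runx1KO over control and 566 in Runx1KO over ZebDKO.

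Replicate numbers did not pair the libraries, since deviations of libraries with the same number correlated at -0.049 to 0.040. With the replicate number as a block, 1040 genes were called higher and 669 lower in Runx1KO over control, with 3 and 0 members, and no member's call changed in any comparison. Motif shares fall in the middle 200 bp and counts of regions change with the distance rule, both by construction. The paper gives only a lower bound on reads per sample, and the reads left in each library after duplicate removal are not given. No exact floor can therefore be given for Klf15.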
